A study of Mus musculus with 12 samples.

Results

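The aminoacyl-tRNA synthetases and the scaffold proteins of their cytosolic complex are represented here by 39 genes of the 15113 listed, found by gene symbol. They comprise 20 genes of the cytosolic enzymes, 16 nuclear genes of the mitochondrial enzymes (the symbols that end in 2, other than Aimp2) and 3 scaffold genes, Aimp1, Aimp2 and Eef1e1. All 39 had enough reads to be tested. The samples were cultures of C2C12, an immortalized line of mouse myoblasts whose cells fuse to myotubes in low serum, and the labels name no transgene or deletion. One group of 6 libraries came from myotubes given 20 μM BAM15, a proton carrier that uncouples mitochondrial respiration, in DMSO for 16 h, and the other 6 from myotubes given the DMSO vehicle for the same 16 h. The comparison asks how a long exposure to this uncoupler alters the transcripts of a single muscle cell line. The labels do not say whether the 6 libraries of a condition came from separate cultures, so that p-values measure only the spread between these libraries.

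Each synthetase joins 1 amino acid to its tRNAs at the cost of ATP, and the charged tRNA then carries the amino acid to the ribosome. Vertebrate cells keep largely separate enzymes for the cytosol and for the mitochondrial matrix, where the few proteins of the mitochondrial genome are made, although both sets are encoded in the nucleus. In the cytosol, part of the enzymes sit together in the multisynthetase complex held by scaffold proteins, while the rest act on their own. Many cytosolic synthetase genes belong to the targets of ATF4, the transcription factor that cells make when amino acids are short or when eIF2α is phosphorylated.

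After BAM15 most cytosolic synthetase transcripts were higher than in vehicle, while most mitochondrial synthetase transcripts were not called in either direction. Of the 20 cytosolic genes, 10 rose past the 3 thresholds of the study's methods, an adjusted p below 0.01, a base mean above 50 and a change of more than 2-fold, and 0 fell past them. Over all 12730 tested genes, 3.7% rose and 3.58% fell past the same thresholds. At the adjusted p alone 16 of the 20 were higher and 0 lower, against a background of 22% of all genes higher and 20.3% lower. The log2 fold change of each of the 20 was above 0, although the small values of Farsa and Hars changed sign in 1 other setting each. The median log2 fold change of the cytosolic genes was 1.02, beside 0.02 for all tested genes. The 16 mitochondrial genes had a median of -0.13, with 0 past the 3 thresholds, 2 higher and 3 lower at the adjusted p. The median base mean was 2896 for the cytosolic and 184 for the mitochondrial genes. The part of this difference in the number of calls was not tested. Adjusted p-values come from the quasi-likelihood test of edgeR, corrected over all tested genes by the Benjamini-Hochberg procedure. Values given with ± beside a log2 fold change are standard errors, and normalized counts are read counts scaled to the average library after TMM correction. The libraries were primed at the poly(A) tail, so that a count does not scale with transcript length.

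**Figure D1:**
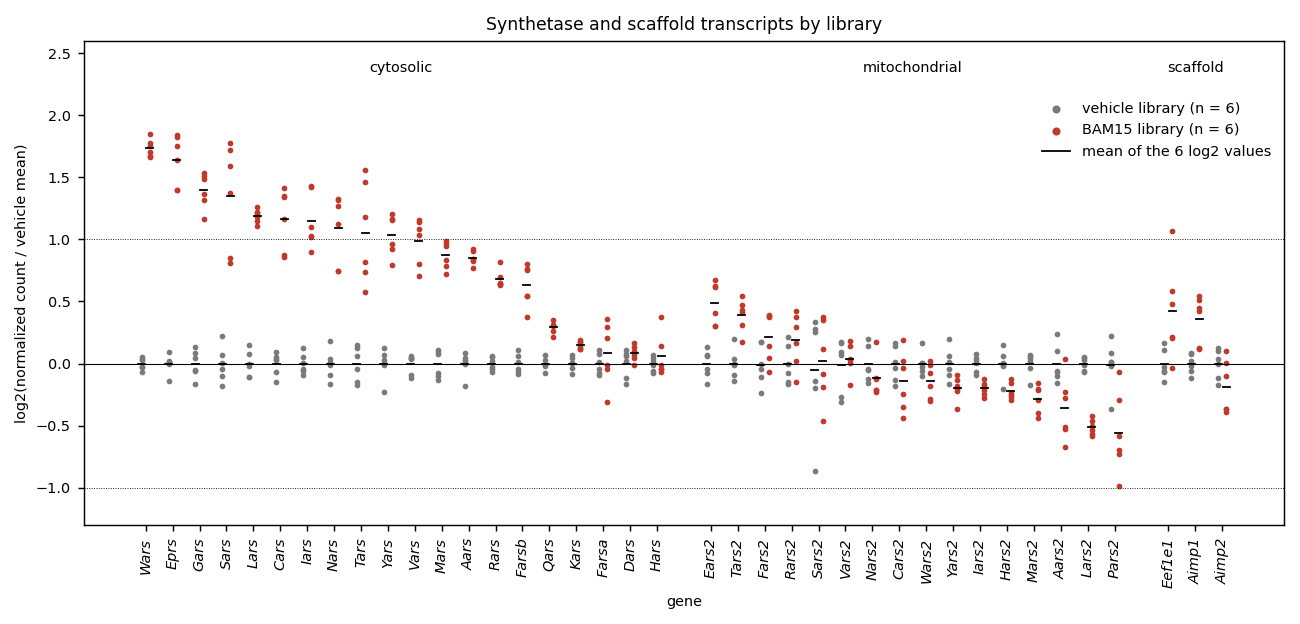
Normalized count of each of the 39 genes in each library, as log2 of its ratio to the mean of the 6 vehicle libraries (vertical axis), for the cytosolic, mitochondrial and scaffold groups (horizontal axis, ordered by fold change). Grey points are vehicle and red points BAM15 libraries, black bars are means of the 6 log2 values, and dotted lines mark a 2-fold change. The red points of Wars and Eprs lie highest, and those of most mitochondrial genes lie around or below 0.

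The libraries held between 13983725 and 18866728 counted reads. Cytosolic synthetase reads made up 0.293% ± 0.00594 (SD, n = 6) of all counts in vehicle and 0.571% ± 0.0298 (SD, n = 6) in BAM15 libraries. Mitochondrial synthetase reads made up 0.0240% ± 0.00106 and 0.0221% ± 0.00115. Reads of the mitochondrial genome made up 2.85% to 4.71% of counts in vehicle and 4.29% to 6.47% in BAM15 libraries, and their part in the synthetase values was not tested. Bulk libraries cannot tell more RNA per cell from a changed mixture of cells. Of the 10 myotube markers, 2 were higher and 2 lower at the adjusted p, where 22% of all tested genes were higher and 20.3% lower. The summed level of the myotube markers ran from 366303 to 408136 in vehicle and from 347601 to 461024 in BAM15 libraries. All 5 proliferation markers were lower, with sums of 4918 to 5709 in vehicle and 1863 to 2017 in BAM15 libraries, and none of them was at 0. Of the 4 myoblast markers, Myf5 was higher and Myod1 and Pax7 were lower, with sums of 2048 to 2320 and 1454 to 2378. The part of these markers in the synthetase values was not tested.

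Promoters are shown for the members whose RefSeq window holds the core of the C/EBP-ATF composite element, the site at which ATF4 pairs with a C/EBP factor. The 8 letters searched were TGATGNAA, on both strands, in windows from 250 bases before to 50 bases after a start site of GRCm38.p6. On the opposite strand the same letters read TTNCATCA. The windows are printed 5′ to 3′ on the strand of the gene, in lower case with the matching letters in capitals. They lie at chr6:55037751-55038050 (plus strand) for Gars, chr13:49681880-49682179 (plus) for Iars, chr15:11399609-11399908 (minus) for Tars, chr4:129189653-129189952 (plus) for Yars and chr8:111033592-111033891 (plus) for Aars.

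Gars: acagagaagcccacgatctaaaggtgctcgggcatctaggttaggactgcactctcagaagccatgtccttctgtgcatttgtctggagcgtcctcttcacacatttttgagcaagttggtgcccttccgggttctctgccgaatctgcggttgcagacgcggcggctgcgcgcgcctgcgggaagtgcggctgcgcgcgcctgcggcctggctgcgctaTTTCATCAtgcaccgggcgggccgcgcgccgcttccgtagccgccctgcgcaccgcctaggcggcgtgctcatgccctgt
Iars: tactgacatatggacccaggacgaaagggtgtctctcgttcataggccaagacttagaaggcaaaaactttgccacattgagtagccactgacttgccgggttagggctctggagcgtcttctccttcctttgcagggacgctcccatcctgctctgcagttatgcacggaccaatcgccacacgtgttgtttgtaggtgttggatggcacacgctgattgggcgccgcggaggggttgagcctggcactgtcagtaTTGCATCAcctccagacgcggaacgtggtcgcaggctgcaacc
Tars: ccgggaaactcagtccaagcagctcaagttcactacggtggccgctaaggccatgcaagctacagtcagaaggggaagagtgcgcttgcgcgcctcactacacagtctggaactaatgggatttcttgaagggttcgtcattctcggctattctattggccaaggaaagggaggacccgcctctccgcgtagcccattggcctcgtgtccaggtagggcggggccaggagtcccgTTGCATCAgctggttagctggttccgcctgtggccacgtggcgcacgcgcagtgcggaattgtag
Yars: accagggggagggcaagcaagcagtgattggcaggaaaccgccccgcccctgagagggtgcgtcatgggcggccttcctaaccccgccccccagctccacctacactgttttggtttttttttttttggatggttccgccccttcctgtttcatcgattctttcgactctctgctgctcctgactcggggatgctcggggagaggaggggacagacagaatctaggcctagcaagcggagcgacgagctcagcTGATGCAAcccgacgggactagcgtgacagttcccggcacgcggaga
Aars: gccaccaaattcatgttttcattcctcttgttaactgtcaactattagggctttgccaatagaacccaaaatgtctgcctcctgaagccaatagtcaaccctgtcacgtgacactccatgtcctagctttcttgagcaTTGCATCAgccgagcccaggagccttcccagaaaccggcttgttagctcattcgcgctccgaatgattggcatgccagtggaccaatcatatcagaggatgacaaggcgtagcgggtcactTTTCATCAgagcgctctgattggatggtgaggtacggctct

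Counted from 1 at the start site, with positions before it negative, the match began at -30 in Gars, -15 in Tars, 8 in Iars and 4 in Yars. Aars held 2 matches, at -112 and 10. A window was at hand for 13 cytosolic genes, of which these 5 matched, for 14 mitochondrial genes, of which 0 matched, and for the 3 scaffold genes, of which 0 matched. The same letters were found in 1304 of all 32851 windows (3.97%). Among the cytosolic genes with a window, 4 of the 6 that rose past the thresholds matched and 1 of the other 7, Aars, did. Of 14 reference genes of the amino acid response, 4 matched, namely Trib3, Asns, Slc7a11 and Chac1. A match describes letters only. Cars, Hars, Lars, Nars, Rars, Vars, Wars, Hars2 and Pars2 were not searched.

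The tryptophan and the glutamate-proline enzymes had the largest fold changes of the set. Wars, which charges tryptophan tRNA and lies at chr12:108860030-108894174 of GRCm38, had normalized counts of 512 to 556 (median 537) in the vehicle libraries and 1701 to 1937 (median 1777) in the BAM15 libraries. The lowest BAM15 library was thus far above the highest vehicle library, and the spread within each group was narrow. The log2 fold change was 1.74 ± 0.05, a 3.34-fold rise (edgeR adjusted p = 9.44e-13). Eprs (chr1:185363044-185428360), a fused enzyme that charges both glutamate and proline tRNA, had counts of 4671 to 5501 (median 5198) in vehicle and 13598 to 18505 (median 16719.5) in BAM15 libraries. The groups did not overlap, and Eprs rose 3.15-fold (log2 1.65 ± 0.08, adjusted p = 3.91e-10). Over all tested genes, 17.1% had every BAM15 library above every vehicle library, and 17 of the 20 cytosolic genes did.

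The glycine and serine enzymes had the same log2 fold change but differed in spread. Gars (chr6:55038007-55079500), whose single gene supplies the glycyl enzyme to both the cytosol and the mitochondria, had counts of 3450 to 4240 (median 3859) in vehicle and 8678 to 11230.4 (median 10420.2) in BAM15 libraries. Every BAM15 library was above every vehicle library, a rise of 2.65-fold (log2 1.40 ± 0.07, adjusted p = 5.3e-10). Sars (chr3:108424865-108445209), the seryl enzyme, ranged from 4007 to 5314 (median 4484) in vehicle and from 7983 to 15563 (median 12749) in BAM15 libraries. Its groups were also apart, with a log2 fold change of 1.40 ± 0.16 (adjusted p = 7.16e-06), but the BAM15 libraries themselves covered a wide range.

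Enzymes of the branched-chain amino acids leucine and isoleucine both passed the thresholds. Lars, the leucyl enzyme, which also senses leucine for mTORC1, had counts of 2283 to 2731 (median 2446) in vehicle and 5307 to 5918 (median 5646) in BAM15 libraries. These groups were tight and far apart, with a log2 fold change of 1.19 ± 0.06 (adjusted p = 1.55e-10). Iars, the isoleucyl enzyme at chr13:49682100-49734267, had counts of 706 to 823 (median 742) and 1400.1 to 2026 (median 1575), again without overlap, and a log2 fold change of 1.16 ± 0.09 (adjusted p = 5.38e-08). Vars, the valyl enzyme, had counts of 902 to 1021 (median 1007) and 1596 to 2178 (median 2035). Its groups were apart and its adjusted p was 5.74e-08, but its log2 fold change of 0.997 lay just under the 2-fold limit, so that it was not among the 10.

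The remaining 4 genes past the thresholds rose between 2.06-fold (Yars) and 2.27-fold (Cars). Cars, the cysteinyl enzyme at chr7:143557230-143600090, had counts of 642 to 759 (median 728) in vehicle and 1294 to 1899 (median 1704) in BAM15 libraries, and its log2 fold change was 1.18 ± 0.10 (adjusted p = 9.47e-08). Nars, the asparaginyl enzyme, had counts of 5478 to 6969 (median 6155) and 10297 to 15395 (median 14077), with a log2 fold change of 1.11 ± 0.11 (adjusted p = 5.43e-07). Both genes were higher in each BAM15 library than in any vehicle library. Tars (chr15:11382301-11399665), the threonyl enzyme, had counts of 2072 to 2589 (median 2348) and 3482 to 6868 (median 4703), and a log2 fold change of 1.10 ± 0.16 (adjusted p = 4.81e-05). Yars (chr4:129189760-129219607), the tyrosyl enzyme, had counts of 793 to 1012 (median 939) and 1609 to 2142 (median 1944), and a log2 fold change of 1.04 ± 0.08 (adjusted p = 3.92e-08). Again no BAM15 library fell within the vehicle range, although Tars varied more among BAM15 libraries than Yars did. The last 30 bases of Yars lie opposite the end of C77080, whose own log2 fold change was 0.46 ± 0.14 (adjusted p = 0.0138). The part of such opposite-strand neighbours was not tested, and the strand used for counting is not given in the sources used here.

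**Figure D2:**
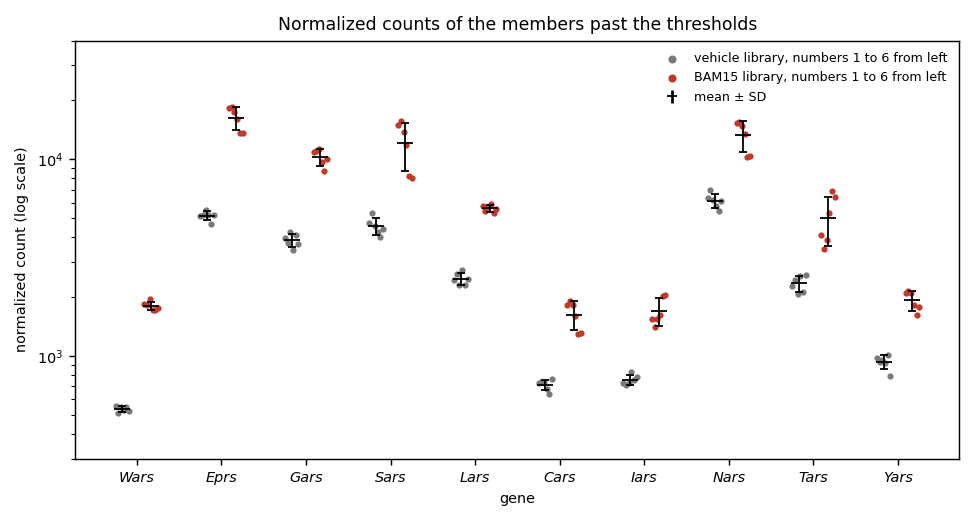
Normalized counts on a log axis of the 10 cytosolic genes past the 3 thresholds, with each library as a point (numbers 1 to 6 from left to right) and the mean ± SD in black, for vehicle (grey) and BAM15 (red), n = 6 each. In each gene the red points lie above all grey points. In Wars, Eprs, Gars, Sars, Cars, Nars and Yars the BAM15 libraries numbered 4 to 6 lie below those numbered 1 to 3. In Tars and Iars they lie above, and in Lars the ranges overlap.

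Beside Vars, 5 further cytosolic genes rose by less than 2-fold. Aars, the alanyl enzyme at chr8:111033144-111057664, had counts of 2106 to 2527 (median 2416) in vehicle and 4061 to 4517 (median 4272) in BAM15 libraries, without overlap, and a log2 fold change of 0.85 ± 0.05 (adjusted p = 3.62e-09). All 400 last bases of its annotated transcript are shared with Exosc6 on the same strand, a gene that is not listed. Reads of these bases could come from either gene or be left out of the counts, and the value of Aars is uncertain for that reason. Mars, the methionyl enzyme, which charges both initiator and elongator tRNA, had counts of 1965 to 2329 (median 2160.4) and 3545 to 4262 (median 4002) and a log2 fold change of 0.88 ± 0.07 (adjusted p = 2.69e-08). Its groups did not overlap. The last 68 bases of Mars lie opposite Ddit3, which rose from 799 ± 70.3 to 15889 ± 2993 (SD, n = 6), and the part of those reads in the Mars counts was not tested. Rars, the arginyl enzyme, had counts of 2002 to 2197 (median 2102) and 3255 to 3702 (median 3286), with no overlap and a log2 fold change of 0.68 ± 0.05 (adjusted p = 2.07e-08). Farsb and Qars, at log2 fold changes of 0.64 ± 0.07 and 0.29 ± 0.05, completed the genes called at the adjusted p (adjusted p = 3.05e-06 and 7.12e-05).

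Kars, Farsa, Dars and Hars were not called. Kars, whose gene supplies the lysyl enzyme to cytosol and mitochondria alike, had a log2 fold change of 0.15 ± 0.04 and missed the threshold narrowly (adjusted p = 0.0102; it passed in 5 of 25 other settings), although its BAM15 libraries (2706 to 2851) all lay above the vehicle libraries (2352 to 2619.7). The log2 fold changes of Farsa, Dars, the aspartyl enzyme, and Hars, the histidyl enzyme, were 0.10 ± 0.10, 0.08 ± 0.06 and 0.07 ± 0.07, and their groups overlapped. Farsa and Farsb encode the α and β subunits of a single phenylalanyl enzyme that works as a tetramer. The ratio of Farsb to Farsa counts ran from 0.515 to 0.527 in the vehicle libraries and from 0.707 to 0.837 in the BAM15 libraries, so that the transcripts of both subunits stood in a nearly fixed ratio in vehicle and in a different one after BAM15. The last 248 bases of Farsb lie opposite Sgpp2, a gene that is not listed.

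Members of the multisynthetase complex and free enzymes both rose. Among the 8 complex enzymes, 3 passed the 3 thresholds (Eprs, Lars and Iars) and 6 the adjusted p, with a median log2 fold change of 0.78. Among the 12 free enzymes, 7 passed the thresholds and 10 the adjusted p, with a median of 1.07. Over all tested genes, 3.7% rose past the 3 thresholds and 22% were higher at the adjusted p. Both sets ran from near 0 to above 1.6, and their difference was not tested. By the fold of the catalytic domain, all 9 enzymes of class I were called at the adjusted p and 6 of the 10 of class II, with medians of 1.04 and 0.75, Eprs holding a domain of each class. This difference was not tested either.

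Of the 3 scaffold genes, 1 was called at the adjusted p, where 22% of all tested genes were higher and 20.3% lower. Aimp1, which is also secreted as a cytokine precursor, had counts of 4235 to 4857 (median 4594) in vehicle and 4977 to 6665 (median 6194) in BAM15 libraries, without overlap and with a log2 fold change of 0.37 ± 0.08 (adjusted p = 0.000957). Eef1e1, also known as Aimp3, had counts of 158 to 197 (median 169.9) and 171 to 368 (median 224). Its ranges overlapped, with 1 BAM15 library above the rest, and its log2 fold change of 0.47 ± 0.15 did not pass (adjusted p = 0.0183). Aimp2, the core scaffold of the complex, had counts of 1630.3 to 2001 (median 1853) and 1397 to 1967 (median 1568), which overlapped, and a log2 fold change of -0.17 ± 0.09 (adjusted p = 0.128). All 400 last bases of Aimp2 lie opposite Eif2ak1, whose log2 fold change was -0.19 ± 0.06 (adjusted p = 0.0205).

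Among the mitochondrial enzymes, leucine and glutamate moved in opposite directions. Lars2, the mitochondrial leucyl enzyme at chr9:123366927-123462666, had counts of 298 to 323 (median 313) in vehicle and 208 to 232 (median 217) in BAM15 libraries. Every BAM15 library lay below every vehicle library, and Lars2 fell by 0.51 on the log2 scale (SE 0.06, adjusted p = 5.26e-06). Ears2 (chr7:122037213-122067263), the mitochondrial glutamyl enzyme, had counts of 111 to 137 (median 126) and 154 to 199 (median 178). Its BAM15 libraries all lay above the vehicle libraries, with a log2 fold change of 0.49 ± 0.09 (adjusted p = 0.000428).

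Tars2 and Iars2 showed smaller changes. Tars2, the mitochondrial threonyl enzyme, had counts of 308 to 389 (median 338) in vehicle and 382 to 495 (median 455) in BAM15 libraries, ranges that overlapped at 1 end, and a log2 fold change of 0.39 ± 0.08 (adjusted p = 0.000541). Iars2, the mitochondrial isoleucyl enzyme, had counts of 1042 to 1168 (median 1122) and 915 to 1019 (median 968), which did not overlap, and a log2 fold change of -0.20 ± 0.05 (adjusted p = 0.00358), but lost its call in 2 of 25 other settings, among them numbers 4 to 6 alone (adjusted p = 0.17). All 400 last bases of Iars2 lie opposite Rab3gap2, whose own log2 fold change was -0.37 ± 0.08 (adjusted p = 0.000997). Mars2, the mitochondrial methionyl enzyme, was the last of the 5 genes called, at -0.28 ± 0.08 (adjusted p = 0.00942), with overlapping groups, and lost its call in 15 of 25 other settings. The number of mitochondrial genes called lower ranged from 1 to 7 over the settings tried.

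The other 11 mitochondrial genes were not called, at log2 fold changes from -0.53 (Pars2, adjusted p = 0.0121) to 0.22 (Fars2, adjusted p = 0.0775). Pars2, the prolyl enzyme, and Sars2, the seryl enzyme, had base means of 47.4 and 47.3, under the minimum of 50. Of the 16 genes, 1 had every BAM15 library above and 2 every BAM15 library below the vehicle libraries, where 17.1% and 17% of all tested genes did. No mitochondrial gene passed the 3 thresholds by edgeR, DESeq2's Wald test or limma-voom, and 10 of the 16 had an unadjusted edgeR p under 0.05, as did 58.7% of all tested genes. The largest log2 change of any of them over all settings tried was 0.64 in size.

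Set side by side, the cytosolic and mitochondrial enzyme formed 17 pairs, in which Eprs and Fars2 appear more than once. The cytosolic to mitochondrial count ratio was higher in every BAM15 library than in any vehicle library in 12 pairs, and its ranges overlapped in 5. Of the 20 cytosolic genes, 17 were apart in this way by their own counts, so that the ratios largely restate their rise. The share over ratios of other gene pairs was not taken. The count ratio of Wars to Wars2 was 5.01 to 6.37 in vehicle and 19.4 to 24.3 in BAM15 libraries. For Lars to Lars2 it was 7.17 to 8.49 and 22.9 to 27.5. For Iars to Iars2 it was 0.625 to 0.777 and 1.53 to 2.11, so that Iars2 had more reads than Iars in each vehicle library and fewer in each BAM15 library. Eprs counts stood at 80.2 to 108 times those of Pars2 in vehicle and 301 to 535 times in BAM15 libraries, and at 38 to 46.4 and 70.8 to 118 times those of Ears2. For threonine, the only amino acid other than glutamate for which both genes were called higher, the ratio of Tars to Tars2 was 5.41 to 7.88 in vehicle and 7.41 to 16.3 in BAM15 libraries, and these ranges overlapped. The ranges also overlapped for Hars to Hars2 (2.95 to 3.42 and 3.24 to 4.79), Rars to Rars2 (9.53 to 12.5 and 12.4 to 18.5), Sars to Sars2 (68.2 to 208 and 195 to 296) and Farsa to Fars2 (16 to 19 and 14.4 to 16.7).

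**Figure D3:**
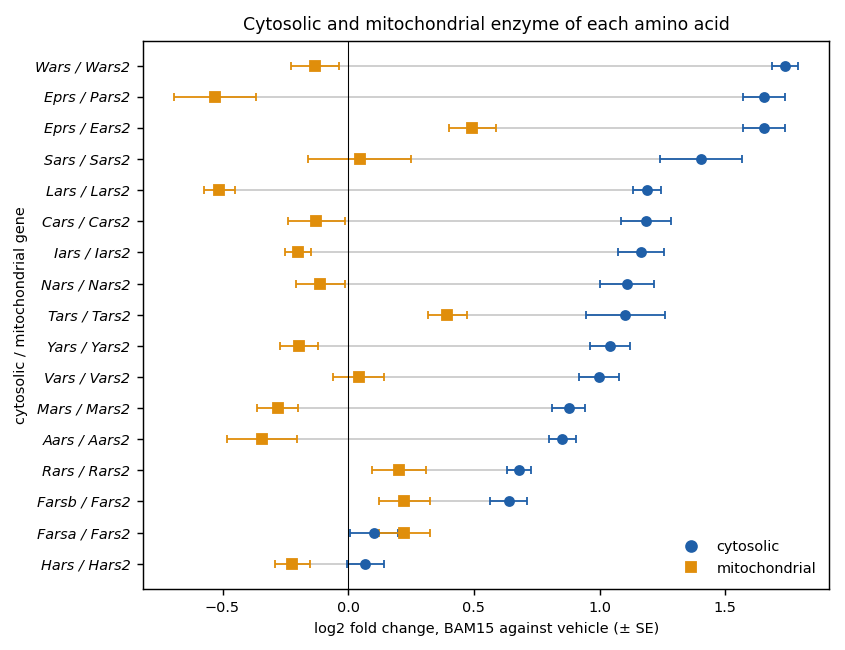
Log2 fold change after BAM15, with its standard error (horizontal axis), of the cytosolic (blue circles) and the mitochondrial (orange squares) gene of each amino acid, ordered by the cytosolic change (vertical axis). Eprs and Fars2 appear in 2 pairs each, since Eprs serves both glutamate and proline and the cytosolic phenylalanyl enzyme has 2 genes. Blue circles lie right of the orange squares in each pair but Farsa and Fars2, by most in Eprs and Pars2.

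The BAM15 libraries numbered 1 to 3 and those numbered 4 to 6 differed in many genes, 13.5% of all tested genes being higher and 10.7% lower in numbers 4 to 6 at an adjusted p below 0.01. In the vehicle libraries the same contrast called 0% of the tested genes with edgeR, and 696 genes had an unadjusted p under 0.05, against 6068 in the BAM15 libraries. Neither the labels nor the paper names a batch that follows these numbers. The cut was chosen because an earlier look at these data saw the BAM15 libraries fall into these ranges. P-values for differences between the ranges are therefore not independent of that choice. In the BAM15 libraries, 3 of the 39 genes were higher and 9 lower in numbers 4 to 6. Tars counts ran from 3482 to 4113 in numbers 1 to 3 and from 5292 to 6868 in numbers 4 to 6, a log2 difference of 0.69 (adjusted p = 0.000202). Sars ran the other way, with counts from 13730.4 to 15563 in numbers 1 to 3 and from 7983 to 11768 in numbers 4 to 6, a difference of -0.66 (adjusted p = 0.00119). Iars and Eef1e1 were the other two higher genes, and Nars, Cars, Eprs, Yars, Farsa, Farsb, Aimp1 and Aimp2 the other lower ones.

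The effect of BAM15 was therefore also taken within each range of numbers, 3 libraries against 3. All 16 cytosolic genes called over the 12 libraries were called in both ranges, which are parts of those same 12 libraries. Over all genes tested in numbers 1 to 3, 2861 of 12898 were higher and 2869 lower at the adjusted p. In numbers 4 to 6 the counts were 2117 and 2148 of 12849. The log2 fold change of Wars was 1.78 in numbers 1 to 3 and 1.68 in numbers 4 to 6, and that of Eprs was 1.77 and 1.51. Tars was at 0.76 and 1.35, and Sars at 1.59 and 1.13. Farsa, not called over the 12 libraries, was at 0.27 in numbers 1 to 3 (adjusted p = 0.00108) and at -0.11 in numbers 4 to 6 (adjusted p = 0.331). Among the mitochondrial genes called, Lars2 passed in both ranges, Ears2 only in numbers 4 to 6, and Tars2, Iars2 and Mars2 only in numbers 1 to 3. Of the scaffold genes, Aimp1 was called in numbers 1 to 3 (0.44) and not in numbers 4 to 6 (0.28, adjusted p = 0.0202), where Eef1e1 was higher (0.70, adjusted p = 0.00291) and Aimp2 lower (-0.30, adjusted p = 0.00906). The difference of the effect itself was tested with an interaction term in edgeR, and 0% of all tested genes passed an adjusted p below 0.01. At an unadjusted p under 0.05 there were 3313 genes in all and 9 of the 39, and Tars was the only member at an adjusted p under 0.05 (adjusted p = 0.0476).

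**Figure D4:**
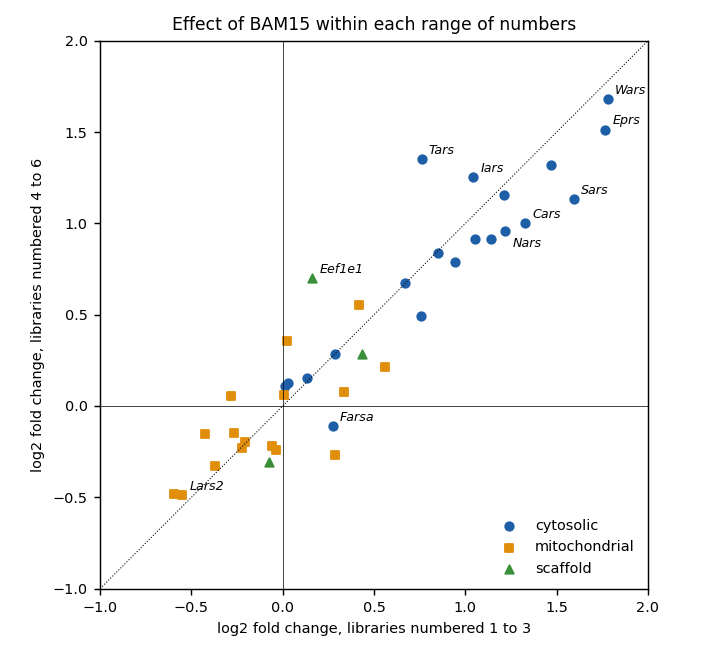
Log2 fold change after BAM15 in libraries numbered 1 to 3 (horizontal axis) and 4 to 6 (vertical axis), 3 against 3 libraries each, for cytosolic (blue circles), mitochondrial (orange squares) and scaffold genes (green triangles). The dotted line marks equal changes. Tars (0.76 and 1.35) and Eef1e1 (0.16 and 0.70) lie above it, and Sars (1.59 and 1.13) lies below it.

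Genes that act beside the synthetases were read by lists. Of 14 tested tRNA charging partners, 6 rose and 1 fell at the adjusted p, with a median log2 fold change of 0.12, where 22% of all tested genes rose and 20.3% fell. Ptrh2, which frees tRNA from stalled peptides, rose by log2 0.92 ± 0.06, and Prorsd1, a homologue of the bacterial proofreading domain for prolyl-tRNA, by 0.53 ± 0.07 (adjusted p = 8.44e-09 and 6.44e-06). Qrsl1, Gatb and Gatc form the amidotransferase that makes glutaminyl-tRNA in mitochondria, which lack a glutaminyl synthetase of their own, and were at 0.05, 0.07 and 0.17, not called.

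Elongation factors, which bring charged tRNA to the ribosome and move it on, rose at the adjusted p in 4 of 10 tested genes, with a median of 0.30, beside 22% of all tested genes. Eef1b2, an exchange factor of eEF1A, rose by log2 0.53 ± 0.05 (adjusted p = 2.13e-07), Eef2, the translocase, by 0.50 ± 0.07 (adjusted p = 1.41e-05) and Eef1g by 0.29 ± 0.05 (adjusted p = 0.000367). The mitochondrial factors Tufm, Tsfm, Gfm1 and Gfm2 were not called, at -0.10, 0.31, -0.04 and -0.20. The cytosolic factors Eef1a1 and Eefsec were not called either, at 0.43 (adjusted p = 0.0241) and 0.26 (adjusted p = 0.0690). A difference between the cytosolic and mitochondrial factors was not tested.

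Of 22 genes of tRNA maturation and export, 8 rose at the adjusted p, with a median of 0.22, and 3 rose past the 3 thresholds, where 22% and 3.7% of all tested genes did. Trmt61a, the catalytic subunit of a tRNA adenosine methyltransferase, had counts of 315 to 414 (median 374) in vehicle and 711 to 852 (median 803) in BAM15 libraries and a log2 fold change of 1.09 ± 0.07 (adjusted p = 8.91e-09). Its partner subunit Trmt6 was at 0.20 ± 0.06 and not called (adjusted p = 0.0161). Trmt1, a tRNA guanosine methyltransferase, had counts of 435 to 545 (median 508) and 913 to 1263 (median 1084) and a log2 fold change of 1.10 ± 0.09 (adjusted p = 6.86e-08). Rtcb, the ligase that joins tRNA exons and also spliced Xbp1 RNA, rose by 0.38 ± 0.05 (adjusted p = 3.52e-05). The third gene of this list past the 3 thresholds was Xpot, the nuclear export receptor of tRNA, at 1.69 ± 0.26 (adjusted p = 0.000135). Its counts ran from 308 to 424 in vehicle libraries. In BAM15 libraries they ran from 617 to 833 in numbers 1 to 3 and from 1130 to 1935 in numbers 4 to 6. The log2 difference between these ranges was 1.06 (edgeR adjusted p = 0.000785).

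Of 19 genes of RNA polymerase III, which transcribes tRNA genes, and its factors, 5 rose and 2 fell at the adjusted p, with a median of -0.01, where 22% of all tested genes rose and 20.3% fell. Its subunits Polr3e, Polr3d and Polr3c rose by log2 1.02 ± 0.11, 0.58 ± 0.07 and 0.40 ± 0.06 (adjusted p = 2.17e-06, 5.97e-06 and 8.38e-05), and Brf1, a subunit of its initiation factor TFIIIB, fell by 0.46 (adjusted p = 0.000652). The reference genes of the amino acid response had a median of 2.10. Of 13 tested, 11 rose past the 3 thresholds, where 3.7% of all tested genes did. Chac1, a glutathione-degrading enzyme, rose by log2 3.63 ± 0.06, Trib3, a pseudokinase that feeds back on ATF4, by 5.65 ± 0.11 and Asns, asparagine synthetase, by 2.33 ± 0.06 (adjusted p = 3.39e-15, 2.69e-14 and 1.19e-13). Eif2ak4, the kinase GCN2 that binds uncharged tRNA, was at 0.02 ± 0.14 and not called (adjusted p = 0.918).

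**Figure D5:**
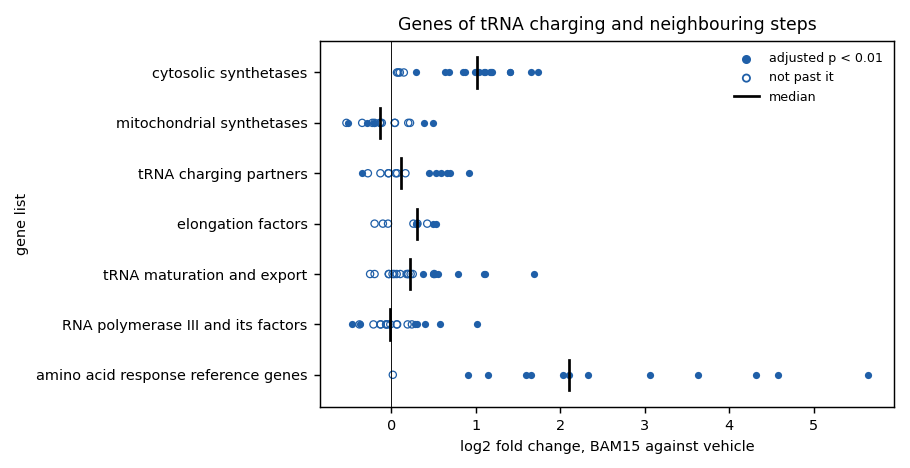
Log2 fold change after BAM15 (horizontal axis) of each tested gene of the lists named on the vertical axis, with filled points at an adjusted p below 0.01, open points above it, and the median as a black bar. The cytosolic synthetases have a median of 1.02, between those of the reference genes (2.10) and of the elongation factors (0.30).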

How the data were processed

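Total RNA of C2C12 myotubes was sequenced from 12 QuantSeq 3′ libraries, and the authors aligned and counted reads with BlueBee software. The counts as deposited by the authors are whole reads per Ensembl gene, without normalization, on GRCm38 (mm10) per the labels. Another table that the authors deposited, of normalized signal made with DESeq2 (1.22.2 in the submitters' processing notes), holds the same counts multiplied by 0.936 to 1.20 per library and served 1 alternative only. The tables' 11 columns of other samples were not used. The strand of counting is not given in the sources used here.

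Groups came from the labels. In R 4.3.3 with edgeR 4.0.16, filterByExpr removed 2383 genes and left 12730, TMM factors ran from 0.932 to 1.04, and a robust quasi-likelihood model with condition alone was fitted to all 12 libraries. P-values were adjusted by the Benjamini-Hochberg method over the tested genes. Standard errors of log2 fold changes were obtained as the absolute log2 fold change over the root of F. Numbers 1 to 3 and 4 to 6 were compared in a 4-group model. Library pairs within a condition differed beyond sampling noise (at least 4.98 chi-square units per gene).

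The members, the lists and the ranges of library numbers were chosen with earlier results of these data known. Counts by library are given for the genes past the 3 thresholds and for the 4 lowest p-values among the rest of the cytosolic and mitochondrial genes, and for the scaffold genes. The 3 genes with the lowest p of each further list were named by rule, and other genes of these lists after their values were seen; a gene that this rule takes in is not reported here. Promoter windows are RefSeq's for GRCm38.p6, and positions are from GENCODE M21. The tests were checked on simulated data. Alternatives were other scalings (DESeq2 size factors, upper quartile, library size), filters and thresholds, DESeq2 1.42.0, limma 3.58.1 (voom, and log2 of the signal plus 1), no robust moderation, blocks by library number, each range of numbers alone and each library left out in turn. Python 3.11.15 and matplotlib 3.10.9 served for the figures.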

Additional observations from a re-analysis of the deposited data

Results flagged for a closer look

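Among 78 sets of 6 normalized counts, 4 held a library set apart from the other five by more than 0.625 of the whole range, and chance flags about 1 set in 20. Aars was lowest in vehicle library 2, at 2106, where the next was 2374 (gap over range 0.636). Rars was highest in BAM15 library 1, at 3702, above a next value of 3417 (0.638). Nars2, the mitochondrial asparaginyl gene, was highest in BAM15 library 5, at 165.2, with the next at 135.04 (0.75). Wars2, the mitochondrial tryptophanyl gene, was highest in vehicle library 6, at 104.8, above 93.65 (0.633). The cause of these values was not tested.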

How the results depend on the processing

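Each of the 39 genes was refitted under 25 other settings. The 10 cytosolic genes past the thresholds stayed higher at an adjusted p below 0.01 in all 250 of these 250 fits, while the number of cytosolic genes past the 3 thresholds ranged from 8 (numbers 4 to 6 only) to 15 (a fold above 1.5). With each library left out in turn, cytosolic genes past the thresholds numbered 10 to 11 and those at the adjusted p 16 in each fit, mitochondrial genes higher 2 in each fit and lower 2 to 4, and scaffold genes 1 to 2 (2 without BAM15 replicate 1, when Eef1e1 passed). The medians then ran from 0.986 to 1.03 (cytosolic) and from -0.183 to -0.0954 (mitochondrial). Mitochondrial genes lower numbered 5 with upper-quartile scaling, library size only, DESeq2's Wald test and limma on the signal, 7 at an adjusted p below 0.05, and 1 in numbers 4 to 6 only, where 1 was higher. Over all 12730 tested genes, 2580 were lower in the main fit, and 2742, 3070, 2832 and 3043 in the settings that gave 5. In numbers 4 to 6 only, 2148 of 12849 were lower and 2117 higher. All-gene counts at a fold above 1.5 or an adjusted p below 0.05 were not taken. Scaling by library size only moved their median to -0.192, beside -0.0377 for all tested genes. Scaffold genes called numbered 2 with a block for the 2 ranges of numbers and at an adjusted p below 0.05 (Aimp1 and Eef1e1, both higher), and 2 in numbers 4 to 6 only (Eef1e1 higher and Aimp2 lower, without Aimp1).

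With the replicate block for the library number, mitochondrial genes lower numbered 1 (Lars2, with Iars2 at an adjusted p of 0.0127), and the block changed no other of these counts by more than 1.5 times. Over all genes tested in that fit, 2572 of 12730 were lower. The numbers do not pair the libraries: correlations of same-numbered libraries ran from -0.0756 to 0.311, and 2 of the 6 BAM15 libraries correlated best with their own number.

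Genes that were not called changed sign as follows. In numbers 4 to 6 only, Farsa was at -0.1118, Nars2 at 0.05681 and Sars2 at -0.2708. With library size only, Sars2 was at -0.02464 and Vars2 at -0.0229, and Vars2 was at -0.004047 with limma on the signal. With each library left out in turn, Hars ran from -0.002213 to 0.09438, Sars2 from -0.08176 to 0.1312 and Vars2 from -0.01702 to 0.08158. Of the called genes, Mars2 lost its call in 15 of the 25 settings, Iars2 in 2, and Ears2, Tars2 and Aimp1 in 1 each. The causes were not tested.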
